A study of Mus musculus with 4 samples.

Results

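The actin cytoskeleton and motility genes examined here were a set of 39 genes given by symbol, each of which matched 1 row among the 55401 genes of the count table. They encode the cytoplasmic actins, proteins that nucleate, turn over, crosslink or contract actin filaments, proteins that tie filaments to integrins and to the membrane, and the small GTPases and regulators that steer them. In a migrating T cell, small GTPases switched on by exchange factors activate the WASP and WAVE proteins, which make the Arp2/3 complex start branched filaments at the leading edge. Profilin, cofilin and coronin keep monomers and filaments exchanging, non-muscle myosin II contracts the rear, and talin and kindlin couple filaments to integrins. Inherited loss of WASP, DOCK8, coronin 1A or ARPC1B causes immunodeficiency in humans with defects in T cells.

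The libraries came from P14 CD8+ T cells, mouse T cells with a transgenic receptor specific for lymphocytic choriomeningitis virus (LCMV), harvested from spleens of mice infected with LCMV Armstrong. There were 2 libraries (replicates 1 and 2) from cells transduced with a Hic1 overexpression vector (Hic1 encodes a repressor of transcription with zinc fingers) and 2 from cells transduced with the empty vector. The sample labels place the harvest at day 32 after infection and the series text at day 7. The labels used here state no strain, age or number of mice, and vector expression does not mimic the native level or timing of Hic1.

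Total counts were 7501285 and 8839317 in the Hic1 vector libraries, against 4017346 and 3941364 in the empty vector libraries, and the part of this gap in depth in the results was not tested. Hic1 itself had 314 and 161 counts in the Hic1 vector libraries, against 3 and 5 counts with the empty vector, and rose by 4.58 on the log2 scale (SE 0.59, adjusted p = 0.00706 by edgeR), a call lost without empty vector replicate 1 and by limma voom. CD8 T cell markers were present in every library: the 8 genes of that list summed to 6287 and 7032 CPM (counts scaled to the library size) with the Hic1 vector, against 5733 and 5952 CPM with the empty vector. B cell genes were the list that differed most, with 284 and 217 CPM in the Hic1 vector libraries, against 84.2 and 101.7 CPM with the empty vector. Ighm made up 238 and 197 CPM of this with the Hic1 vector, against 61.4 and 84.4 CPM with the empty vector, and its part in the results below was not tested. The defining B cell gene Ms4a1 had 0 and 1 counts in the Hic1 vector libraries, against 0 and 2 counts in the empty vector libraries. Cd79b, a chain of the B cell receptor complex, had 38.0 and 13.3 CPM with the Hic1 vector, against 16.3 and 3.25 CPM with the empty vector, so its groups overlapped. Cd74 was lower with the Hic1 vector, at 3.52 and 3.30 CPM against 4.61 and 7.74 CPM. H2-Aa overlapped, at 1.41 and 0.91 CPM against 0.49 and 5.50 CPM, so the genes of this list did not move together. Platelet transcripts summed to 15 and 17 counts in the Hic1 vector libraries, against 5 and 10 counts in the empty vector libraries, with Pf4, Ppbp and Gp1bb at 0 in all libraries. Red cell, myeloid, stromal, CD4 T cell and NK cell lists summed to at most 93.7 CPM in any library. Xist was abundant in the libraries numbered 1 (3590 counts with the Hic1 vector and 1885 with the empty vector) and at 3 and 0 counts in those numbered 2, which had 951 and 396 counts of the Y-linked Eif2s3y against 0 and 0 in those numbered 1. Sex-linked expression thus split the replicates of each group in the same way, and differences within each replicate number are given below beside the pooled ones.

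In the comparison of Hic1 vector with empty vector, Was and Dock8 fell and Coro1a and Actn2 rose, while 34 of the 38 members tested did not pass. In bulk RNA of this kind, fewer cells of a type and less RNA per cell cannot be told apart. Was encodes the Wiskott-Aldrich syndrome protein (WASP), the activator of Arp2/3 in blood cells, and fell 1.95-fold. DOCK8, an exchange factor that activates Cdc42, fell 1.70-fold at the RNA level. Coro1a encodes coronin 1A, the main leukocyte coronin, which binds actin filaments, and rose 1.55-fold. Actn2, an alpha-actinin best known from the Z discs of striated muscle, rose 4.11-fold. The test was edgeR's quasi-likelihood test on the whole table with Benjamini-Hochberg adjustment over 11676 genes, called at an adjusted p below 0.05.

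The 4 calls were 10.5% of the members tested, against 1.82% of all genes tested. The members were chosen with earlier results of these data known, so this share and those below are descriptions and not a test. Split by direction, 5.26% of members were called higher and 5.26% lower, where 0.719% of all genes were called higher and 1.1% lower. The members drew far more reads than most genes, with a median of 449 CPM against 25.6 CPM, and their fold changes had a smaller standard error, with a median of 0.132 against 0.276 on the log2 scale. The median absolute log2 fold change was 0.28 over the members and 0.30 over all genes tested. These medians include error, which was larger over all genes, so they do not compare the size of true changes. Whether read depth or error accounts for the share of calls was not tested. There was no common direction: 19 members had a log2 fold change above 0 and 19 below. The median was 0.00 over the members and 0.01 over all genes. Of the 38 members tested, 14 had both Hic1 vector libraries above both empty vector libraries and 14 had both below. Together 73.7% of the members did not overlap, against 51.4% of all genes tested. By direction the share was 36.8% each way, where 26.5% of all genes tested did not overlap upward and 24.9% downward. At an unadjusted p below 0.05 there were 19 members (50%), against 19.1% of all genes tested. DESeq2 called 9 members, against 418 of all 11676 genes, and limma voom 3 members, against 121 of all genes. The counts by role and list below are to be read beside those values. As a share of the RNA, the 39 members held 4.04% and 4.43% of all counts in the Hic1 vector libraries, against 4.37% and 4.21% in the empty vector libraries. Among all genes, calls split 84 higher and 129 lower (39.4% higher). With library sizes alone as the scaling they split 70 and 251 (21.8% higher), and with a correction for GC content 30 and 72 (29.4% higher).

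**Figure D1:**
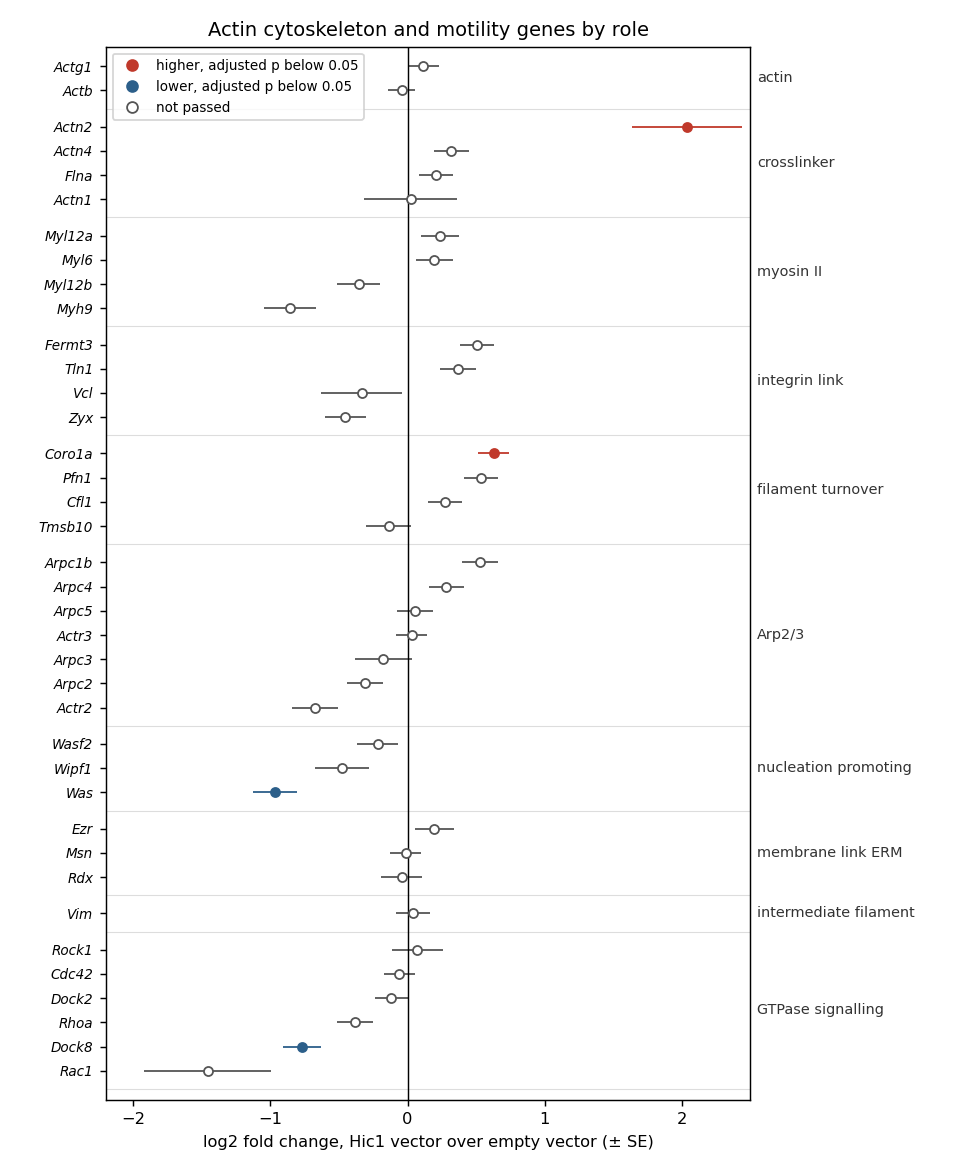
Log2 fold change of each of the 38 tested members, Hic1 vector over empty vector, with its standard error as the bar; genes run down the page by role and filled points passed the test. Actn2 lies farthest to the right at 2.04 and Rac1 farthest to the left at -1.46 with a wide error, and every other point lies within 1 log2 unit of 0.

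Was had 65.6 and 64.2 CPM in the Hic1 vector libraries, against 135 and 119 CPM in the empty vector libraries. Both Hic1 vector libraries lay below both empty vector libraries, by more than the spread within either group. The gene fell by 0.97 on the log2 scale (SE 0.16, adjusted p = 0.0195 by edgeR), with log2 differences of -1.04 within replicate number 1 and -0.88 within number 2. It lies on chromosome X, positions 8081453 to 8090498 on the minus strand (GENCODE M21, mm10). Dock8 had 195 and 199 CPM in the Hic1 vector libraries, against 357 and 315 CPM in the empty vector libraries, again without overlap. It fell by 0.77 (SE 0.14, adjusted p = 0.0242 by edgeR), with differences of -0.87 and -0.66 within replicate numbers 1 and 2. Dock8 lies on chromosome 19, positions 24999534 to 25202432 on the plus strand. WASP is held stable by WIP, the product of Wipf1, and WIP links it to DOCK8. Wipf1 itself had 77.9 and 77.8 CPM in the Hic1 vector libraries, against 131 and 86.7 CPM with the empty vector, and did not pass (log2 fold change -0.48, SE 0.20, adjusted p = 0.212 by edgeR). Without empty vector replicate 1, neither Was (-0.87, adjusted p = 0.168) nor Dock8 (-0.67, adjusted p = 0.186) was called by the same test. Over all 15 alternatives the adjusted p ranged from 0.000122 to 0.168 for Was, called in 14, and from 0.000628 to 0.186 for Dock8, called in 13.

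Coro1a had 3639 and 3661 CPM in the Hic1 vector libraries, against 2189 and 2529 CPM in the empty vector libraries. The groups did not overlap, and after Actb it was the most abundant member per kilobase of exon in every library. It rose by 0.63 on the log2 scale (SE 0.11, adjusted p = 0.0242 by edgeR), with differences of 0.73 and 0.53 within replicate numbers 1 and 2. Coro1a lies on chromosome 7, positions 126699773 to 126707787 on the minus strand. Its exons overlap those of Bola2 on the opposite strand, which had 1150 counts over all libraries, against 77123 for Coro1a. Actn2 was far scarcer, also per kilobase, with 302 and 248 counts in the Hic1 vector libraries, against 49 and 19 counts in the empty vector libraries. Those counts are 42.5 and 28.3 CPM with the Hic1 vector, against 11.9 and 4.75 CPM with the empty vector, so both groups were spread widely but did not overlap. It rose by 2.04 (SE 0.40, adjusted p = 0.0359 by edgeR), with differences of 1.81 and 2.49 within replicate numbers 1 and 2. Actn2 lies on chromosome 13, positions 12269426 to 12340760 on the minus strand. Without empty vector replicate 1 Coro1a was not called (0.53, adjusted p = 0.223), and without empty vector replicate 2 Actn2 was not (1.53, adjusted p = 0.0543). After GC correction alone neither was called by edgeR (Coro1a 0.41, adjusted p = 0.0968, and Actn2 1.86, adjusted p = 0.0598). With the replicate number also in the model, both were (Coro1a 0.415, adjusted p = 0.0256, and Actn2 1.92, adjusted p = 0.00334). The adjusted p over all 15 alternatives ranged from 1.54e-06 to 0.223 for Coro1a, called in 13, and from 6.51e-09 to 0.0616 for Actn2, called in 11.

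**Figure D2:**
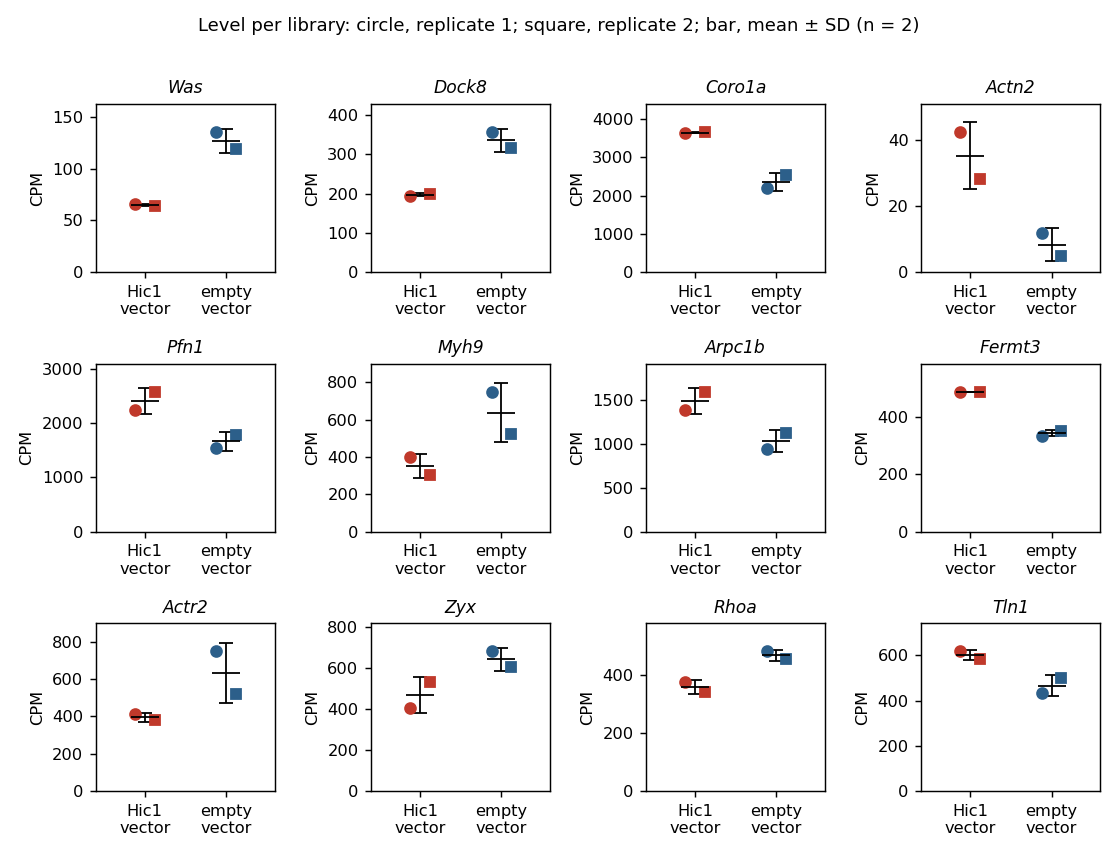
Level in CPM of the 12 members of lowest p, 1 panel per gene, with the Hic1 vector libraries left of the empty vector libraries; circles are replicate 1, squares replicate 2, and bars the mean ± SD (n = 2). The groups do not overlap in any of the 12 panels, which choosing genes by low p in these same libraries favours. The empty vector libraries of Myh9 and Actr2 lie far apart.

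The 250 bases before the RefSeq starts of the 4 called genes are printed below because Hic1 is a DNA-binding repressor and these are the members whose RNA differed; none of the files measured binding. The sequences are from RefSeq (GRCm38.p6), 5′ to 3′ on the gene's strand. Capitals mark GGGCA on either strand (TGCCC on the other), 5 bases that contain the GGCA core described for HIC1 binding.
Was (chrX:8090492-8090741, minus strand): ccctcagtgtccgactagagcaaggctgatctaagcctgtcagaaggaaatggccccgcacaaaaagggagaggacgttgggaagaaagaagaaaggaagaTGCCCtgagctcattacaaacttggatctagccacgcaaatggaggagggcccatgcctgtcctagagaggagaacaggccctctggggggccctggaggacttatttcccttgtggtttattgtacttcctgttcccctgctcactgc
Dock8 (chr19:24999279-24999528, plus strand): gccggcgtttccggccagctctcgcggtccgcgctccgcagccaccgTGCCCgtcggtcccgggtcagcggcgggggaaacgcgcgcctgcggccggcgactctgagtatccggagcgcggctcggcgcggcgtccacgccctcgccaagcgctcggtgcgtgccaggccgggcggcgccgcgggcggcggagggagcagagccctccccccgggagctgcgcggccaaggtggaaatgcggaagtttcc
Coro1a inner start (chr7:126704221-126704470, minus strand): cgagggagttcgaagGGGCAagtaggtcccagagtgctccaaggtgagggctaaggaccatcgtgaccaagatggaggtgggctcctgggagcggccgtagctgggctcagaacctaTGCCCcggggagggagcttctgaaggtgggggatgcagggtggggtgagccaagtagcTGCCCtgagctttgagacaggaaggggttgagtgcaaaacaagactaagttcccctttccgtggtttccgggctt
Coro1a outer start (chr7:126704817-126705066, minus strand): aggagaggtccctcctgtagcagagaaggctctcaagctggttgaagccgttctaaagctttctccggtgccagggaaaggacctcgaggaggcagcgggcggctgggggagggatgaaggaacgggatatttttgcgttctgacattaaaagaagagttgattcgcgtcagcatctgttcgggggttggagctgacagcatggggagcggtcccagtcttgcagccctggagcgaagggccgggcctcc
Actn2 (chr13:12340733-12340982, minus strand): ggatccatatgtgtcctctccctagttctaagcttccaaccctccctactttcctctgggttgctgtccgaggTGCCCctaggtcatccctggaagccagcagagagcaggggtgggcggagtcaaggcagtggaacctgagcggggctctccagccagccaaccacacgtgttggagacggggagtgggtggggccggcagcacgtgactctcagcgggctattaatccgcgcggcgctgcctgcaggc
Both Coro1a windows lie inside the span GENCODE M21 gives for that gene, since the RefSeq starts are downstream of the GENCODE start. GGGCA occurred once before Was, Dock8 and Actn2 and 3 times before the inner start of Coro1a, and had no match before its outer start. Such a short motif is common: 47.7% of all 32851 promoter entries and 55.8% of the 43 entries of members held it. Counted by gene, 23 of the 35 members with an entry (65.7%) held it, against 51% of all genes with an entry. Of the 35 members with an entry, 4 (11.4%) held a CArG box, the site of serum response factor, against 1.62% of all genes with an entry: Actg1, Arpc4, Myl6 and Vcl. The ETS family core CCGGAA, sought on both strands, stood before 11 of the 35 (31.4%), Coro1a and Dock8 among them, against 13.6% of all genes.

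Among the actins and the proteins of filament turnover, Coro1a rose and the other 5 did not pass. Actb, beta-actin, was by far the most abundant member, with 16251 and 16969.7 CPM in the Hic1 vector libraries, against 17663 and 16561 CPM in the empty vector libraries. It made up 38.1% and 38.0% of all member counts, against 41.4% and 40.0%, and its groups overlapped (log2 fold change -0.04, SE 0.10). Actg1, gamma-actin, had 1060.4 and 1017 CPM in the Hic1 vector libraries, against 957 and 963 CPM (0.11, SE 0.11). Pfn1, profilin 1, which feeds actin monomers to growing filaments, had 2244 and 2578 CPM in the Hic1 vector libraries, against 1542 and 1786 CPM in the empty vector libraries. Its groups did not overlap, and at a log2 fold change of 0.53 (SE 0.12) it missed the threshold narrowly (adjusted p = 0.0517 by edgeR). DESeq2 called it, as did 3 other alternatives of the 15. Cfl1, cofilin 1, which severs filaments, had 1595 and 1949 CPM with the Hic1 vector, against 1461 and 1476 CPM (0.27, SE 0.12, adjusted p = 0.261). Tmsb10, thymosin beta 10, a monomer-sequestering peptide, had 378 and 420 CPM with the Hic1 vector, against 511 and 367 CPM, and its groups overlapped (-0.14, SE 0.16). The near-identical gene Gm9844 held 280 counts against 9944 for Tmsb10, and reads the copies share were not resolved here. Its more abundant relative Tmsb4x had 4075 and 4169 CPM with the Hic1 vector, against 2654 and 3261 CPM, and did not pass (0.48, SE 0.12, adjusted p = 0.0661). Tmsb10 was thus 8.48% and 9.15% of the reads of this pair with the Hic1 vector, against 16.2% and 10.1% with the empty vector; these and the shares below are of reads, not corrected for length.

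None of the 7 Arp2/3 subunits passed by edgeR, though 4 had an unadjusted p below 0.05 (19.1% of all genes did), DESeq2 called 2 and limma voom 0. The subunits did not move together: 4 had a log2 fold change above 0 and 3 below, from -0.68 to 0.53, with a median of 0.03. Arpc1b, the blood cell form of the ARPC1 subunit, had 1387 and 1593 CPM in the Hic1 vector libraries, against 943 and 1124 CPM in the empty vector libraries. Its groups did not overlap (0.53, SE 0.13, adjusted p = 0.0615), with differences of 0.56 and 0.50 within the replicate numbers. Its alternative Arpc1a was scarce, so that Arpc1b made up 92.3% and 92.3% of the reads of the pair with the Hic1 vector, against 88.1% and 91.4% with the empty vector. Actr2, which encodes ARP2, 1 of the actin-like pair that forms the base of a branch, had 412 and 379 CPM in the Hic1 vector libraries, against 747 and 519 CPM in the empty vector libraries. The groups did not overlap, but the empty vector libraries were far apart (-0.68, SE 0.17, adjusted p = 0.0680). Its partner Actr3, which encodes ARP3, had 1373 and 1387 CPM with the Hic1 vector, against 1317 and 1386 CPM (0.03, SE 0.11). Actr2 therefore made up 23.1% and 21.5% of the reads of the pair with the Hic1 vector (95% Wilson intervals 22.4 to 23.8 and 20.8 to 22.1), against 36.2% and 27.2% with the empty vector (35.2 to 37.2 and 26.2 to 28.2). These intervals cover counting error only. The remaining subunits lay between. Arpc2 had 924 and 1125 CPM with the Hic1 vector, against 1329 and 1214 CPM (-0.31, SE 0.13). Arpc4 had 423 and 466 CPM, against 363 and 367 CPM (0.28, SE 0.13). Arpc5 (0.05) and Arpc3 (-0.18) overlapped between the groups. DESeq2's 2 calls were Arpc1b and Actr2.

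**Figure D3:**
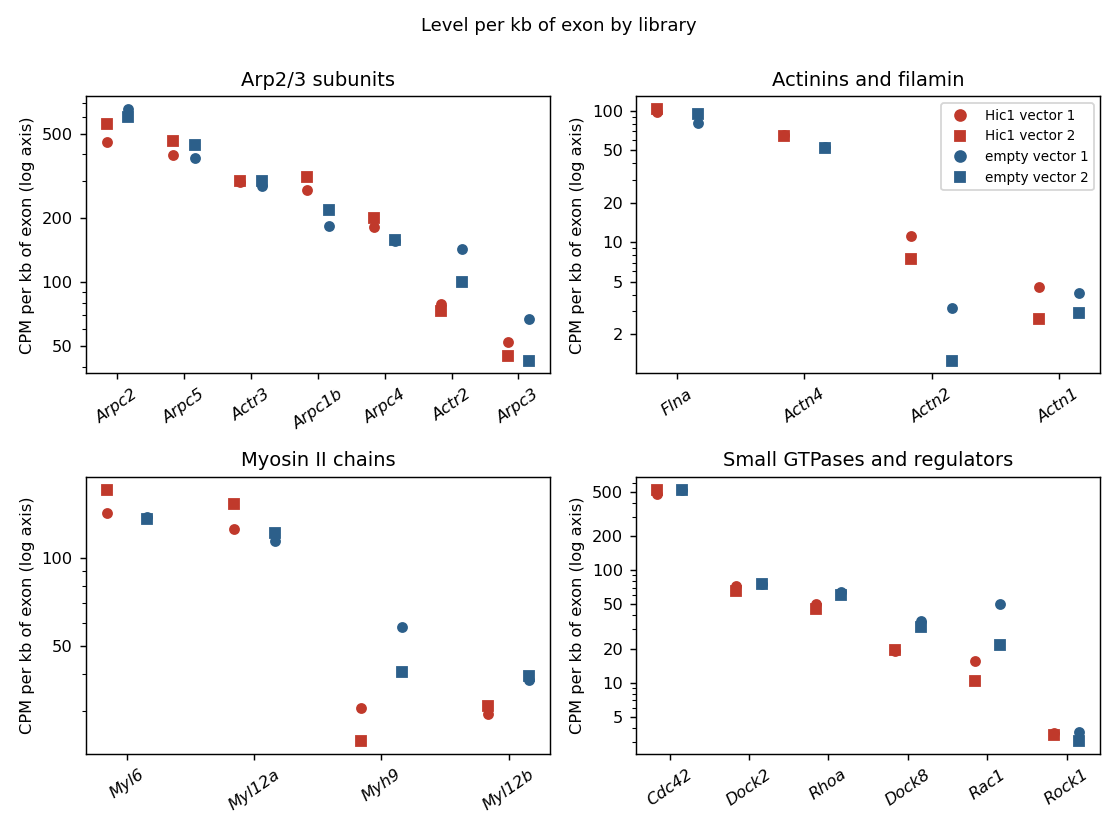
Level in CPM per kb of exon (log axis) of Arp2/3 subunits, actinins and filamin, myosin II chains and small GTPases with their regulators in each library, Hic1 vector left of empty vector. Actr2, Myh9, Dock8 and Rac1 are lower and Actn2 higher in both Hic1 vector libraries than in both empty vector libraries, while Actr3, Cdc42 and Rock1 lie at like levels.

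All 3 nucleation-promoting members had both Hic1 vector libraries below both empty vector libraries, as did 24.9% of all genes tested. Was alone passed. Wasf2, the WAVE2 protein that acts below Rac, had 204 and 195 CPM in the Hic1 vector libraries, against 254 and 210 CPM in the empty vector libraries (log2 fold change -0.22, SE 0.15, adjusted p = 0.462 by edgeR). The summed level of the 3 genes was 348 and 337 CPM with the Hic1 vector, against 520 and 415 CPM with the empty vector.

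Among the small GTPases, their exchange factors and the kinase Rock1, Dock8 fell and the other 5 did not pass. Rac1, a GTPase that drives lamellipodia, had the lowest fold change of all members (log2 -1.46, SE 0.46, adjusted p = 0.198 by edgeR). It had 71.1 and 46.4 CPM in the Hic1 vector libraries, against 225 and 97.4 CPM in the empty vector libraries. The exons of Rac1 overlap those of Daglb on the opposite strand (421 counts, against 2231 for Rac1). The groups did not overlap, but the empty vector libraries differed from each other more than empty vector replicate 2 differed from Hic1 vector replicate 1. Without empty vector replicate 2, whose level was the closer one, Rac1 was called at -1.95 (adjusted p = 0.0049, in a range of 0.000545 to 0.666 over the 15 alternatives), and without empty vector replicate 1 it was at -0.73. The related Rac2, which is largely restricted to blood cells, had 3000.4 and 3421 CPM with the Hic1 vector, against 2697 and 2794 CPM (0.23, SE 0.11, adjusted p = 0.303). Rac1 was 2.31% and 1.34% of the reads of this pair with the Hic1 vector, against 7.71% and 3.37% with the empty vector. Rhoa, the GTPase that drives myosin contraction, had 375 and 342 CPM with the Hic1 vector, against 480 and 454 CPM, without overlap (-0.38, SE 0.13, adjusted p = 0.141). Rock1, the kinase it activates, had 65.0 and 62.0 CPM, against 66.0 and 54.7 CPM (0.07, SE 0.19). Cdc42 had 1420.4 and 1545 CPM with the Hic1 vector, against 1546 and 1548 CPM (-0.06, SE 0.11). Dock2, the main Rac exchange factor of lymphocytes, had 837 and 753 CPM, against 863 and 862 CPM (-0.12, SE 0.12).

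In non-muscle myosin II 2 genes had a log2 fold change below 0 (Myh9 and Myl12b) and 2 above 0 (Myl6 and Myl12a), and none of the 4 genes passed by edgeR (2 had an unadjusted p below 0.05, DESeq2 called 1 and limma voom 0). Myh9, the heavy chain, had 398 and 306 CPM in the Hic1 vector libraries, against 749 and 525 CPM in the empty vector libraries. The groups did not overlap (log2 fold change -0.86, SE 0.19, adjusted p = 0.0544), with differences of -0.91 and -0.78 within the replicate numbers. Myh9 was the DESeq2 call and was called in 8 of the 15 alternatives, GC correction among them (-1.07). Myl6, the essential light chain, had 452 and 544 CPM with the Hic1 vector, against 439.6 and 430.5 CPM (0.19, SE 0.14). The regulatory light chains are encoded by Myl12a and Myl12b, which lie side by side on chromosome 17. Myl12a had 420.7 and 510.5 CPM with the Hic1 vector, against 384 and 408 CPM (0.23, SE 0.14). Myl12b had 81.4 and 86.8 CPM, against 105.8 and 109.7 CPM (-0.36, SE 0.15). Their transcripts match at 95% identity or more over at least 200 bases, and how the counting treated shared reads is not given in the sources used here, so both values are uncertain. As counted, Myl12b was 16.2% and 14.5% of the pair with the Hic1 vector, against 21.6% and 21.2% with the empty vector.

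Among the 4 crosslinking proteins Actn2 alone passed. Flna and Actn4 also had both Hic1 vector libraries above both empty vector libraries, as did 26.5% of all genes tested. Flna, filamin A, which joins filaments into a mesh and binds integrin tails, had 922 and 973 CPM in the Hic1 vector libraries, against 758 and 885 CPM in the empty vector libraries (log2 fold change 0.21, SE 0.12, adjusted p = 0.404 by edgeR). Actn4, the non-muscle actinin that dominates in these cells, had 405 and 396 CPM with the Hic1 vector, against 324 and 318 CPM, without overlap (0.32, SE 0.13, adjusted p = 0.205). Actn1 had 179 and 126 counts with the Hic1 vector, against 94 and 64 counts (0.02, SE 0.34), and its groups overlapped in CPM; its sign changed between alternatives. Actn2 made up 9.0% and 6.44% of the reads of the 3 actinin genes with the Hic1 vector (95% Wilson intervals 8.08 to 10 and 5.71 to 7.26), against 3.32% and 1.4% with the empty vector (2.52 to 4.36 and 0.898 to 2.17). Actn4 still held 85.7% and 90.3% of them with the Hic1 vector, against 90.3% and 93.9%.

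None of the 4 tested proteins that link filaments to integrins passed by edgeR (3 had an unadjusted p below 0.05, DESeq2 called 1 and limma voom 0). Fermt3 and Tln1 had log2 fold changes above 0, and Zyx and Vcl below 0. Fermt3, kindlin-3, which blood cells need to activate integrins, had 488 and 488 CPM in the Hic1 vector libraries, against 336 and 351 CPM in the empty vector libraries. The libraries of each group were close together and the groups did not overlap (log2 fold change 0.51, SE 0.13, adjusted p = 0.0645); DESeq2 called it. Tln1, talin 1, its partner on the integrin beta tail, had 618 and 585 CPM with the Hic1 vector, against 433 and 499 CPM (0.37, SE 0.13, adjusted p = 0.155). After GC correction Fermt3 was at 0.29 and Tln1 at 0.16. Zyx, zyxin, a tension-sensitive adaptor, had 406 and 530 CPM with the Hic1 vector, against 680 and 602 CPM (-0.45, SE 0.15, adjusted p = 0.134). Vcl, vinculin, which binds talin under force, was scarce, at 14.4 and 13.7 CPM against 18.2 and 17.2 CPM (-0.33, SE 0.30). The exons of Vcl overlap those of Ap3m1 on the opposite strand, which had 1350 counts against 366 for Vcl, so its value is uncertain where counting ignored strand. Tln2, talin 2, was the member left untested, with 7 and 1 counts in the Hic1 vector libraries, against 6 and 2 counts in the empty vector libraries.

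The proteins that tie filaments to the membrane, and vimentin, did not pass by edgeR; none of these 4 genes had an unadjusted p below 0.05 and neither DESeq2 nor limma voom called any. Msn, moesin, the main member of the ezrin, radixin and moesin family in lymphocytes, had 1633 and 1809 CPM in the Hic1 vector libraries, against 1704 and 1768 CPM in the empty vector libraries (log2 fold change -0.01, SE 0.11). Ezr, ezrin, had 429.8 and 414 CPM with the Hic1 vector, against 329 and 408 CPM (0.20, SE 0.14), and overlaps the oppositely oriented Sytl3 (1898 counts, against 9674 for Ezr). Rdx, radixin, had 119 and 107 CPM, against 116 and 117 CPM (-0.04, SE 0.15). Moesin RNA made up 74.8% and 77.7% of the reads of the family with the Hic1 vector, against 79.3% and 77.1% with the empty vector. Vim, the intermediate filament protein vimentin, had 2174 and 1855 CPM with the Hic1 vector, against 2091 and 1822 CPM (0.04, SE 0.12). Its levels differed more between the replicate numbers than between the vectors.

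Within the replicate numbers, 31 of the 38 tested members had the same sign in both (81.6%, against 67.8% of all genes tested). The 4 called genes were among them. The 7 with opposite signs were genes near 0 in the pooled comparison, with Tmsb10 the most unequal at -0.44 within number 1 and 0.20 within number 2. Several lower values were larger within number 1, where the empty vector library was the higher of the pair: Wipf1 was at -0.74 and -0.16, Zyx at -0.74 and -0.18, Actr2 at -0.86 and -0.45 and Rac1 at -1.66 and -1.07. Pfn1 (0.54 and 0.53), Actn4 (0.32 and 0.31) and Vcl (-0.34 and -0.33) were nearly equal in both.

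**Figure D4:**
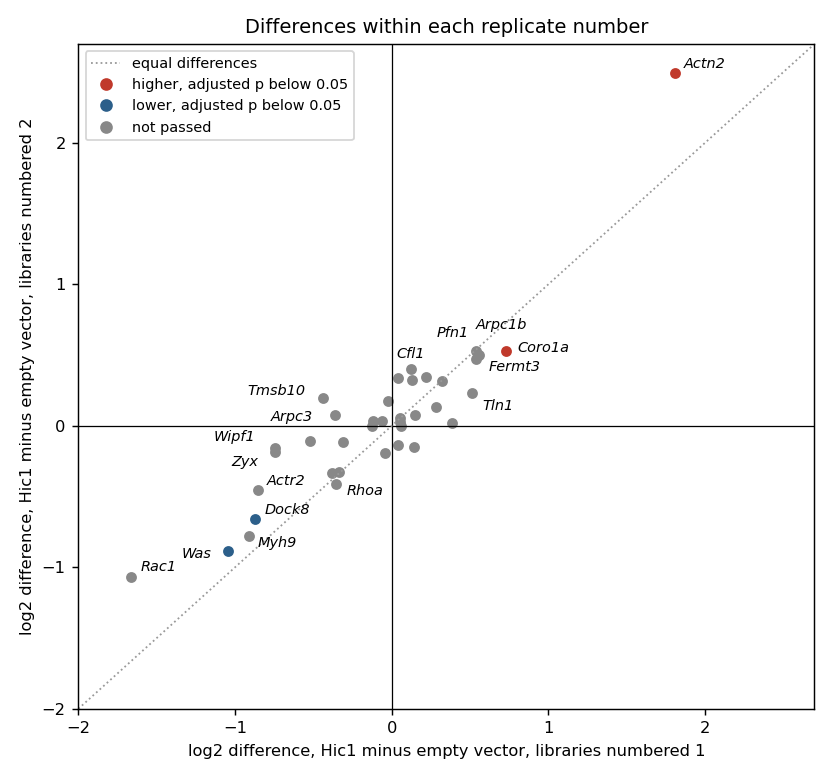
Log2 difference of each tested member, Hic1 vector minus empty vector, within the libraries numbered 1 (x axis) and within those numbered 2 (y axis); the dotted line marks equal differences. The called genes lie in the lower left (Was, Dock8) and upper right (Coro1a, Actn2) of the plot, and Rac1, Wipf1, Zyx and Actr2 lie left of the line, with larger differences within number 1.

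Among 155 other cytoskeletal genes in 9 lists, 132 were tested, of which 1 rose, 2 fell and 129 did not pass. In the main edgeR fit that is close to the background, since 0.719% of all genes tested were called higher and 1.1% lower. Of the 132, 31 had an unadjusted p below 0.05 (19.1% of all genes tested did). DESeq2 called 9, limma voom 4 and edgeR with the replicate number in the model 18. These stand against 418, 121 and 794 of all 11676 genes. Gsn, gelsolin, which severs and caps filaments, had 71.9 and 64.6 CPM in the Hic1 vector libraries, against 27.7 and 33.2 CPM with the empty vector, and rose by 1.16 on the log2 scale (SE 0.21, adjusted p = 0.0236 by edgeR). Cap1, a cyclase-associated protein that recycles cofilin-bound monomers, had 208 and 181 CPM with the Hic1 vector, against 553 and 334 CPM, and fell by 1.19 (SE 0.22, adjusted p = 0.0430). Both belong to the 23 capping, severing and monomer-binding proteins, of which 21 did not pass and whose median was 0.17. Of these 23, 9 had an unadjusted p below 0.05, DESeq2 called 3 and limma voom 2. Rap1a, a small GTPase that activates integrins through talin, had 44.5 and 44.4 CPM with the Hic1 vector, against 103.2 and 75.9 CPM, and fell by 1.00 (SE 0.20, adjusted p = 0.0307). It was the edgeR call among 14 integrin adhesion adaptors, of which 4 had an unadjusted p below 0.05, DESeq2 called 2 and limma voom 1. Without empty vector replicate 1 none of these 3 was called, and without Hic1 vector replicate 2 Cap1 and Rap1a were not. GC correction alone ended all 3 calls, and length correction that of Cap1. With the GC offset and the replicate block together, all 3 were called. Fmnl1, a leukocyte formin, had 123 and 132 CPM with the Hic1 vector, against 499.5 and 255 CPM, and did not pass by edgeR (-1.56, SE 0.30, adjusted p = 0.0567). DESeq2, limma voom and edgeR with the replicate number in the model called it, and edgeR with the GC offset alone did not.

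The other 7 lists had no call by edgeR, and their counts at an unadjusted p below 0.05 stand against 19.1% of all genes tested. Their DESeq2 and limma voom calls stand against 418 and 121 of all 11676 genes. Of 10 formins and Ena/VASP proteins 2 had an unadjusted p below 0.05, and DESeq2 and limma voom each called 1, Fmnl1. After Fmnl1 the lowest p there belonged to Daam1 (-1.59, SE 0.75). Of 27 other small GTPases and regulators 10 had an unadjusted p below 0.05, DESeq2 called 2 and limma voom 0, with Arhgap4 (0.59, SE 0.14, adjusted p = 0.0547) and Arhgap45 (0.53, SE 0.13, adjusted p = 0.0571) lowest in p. Of 14 bundling proteins and tropomyosins 3 had an unadjusted p below 0.05, DESeq2 called 1 and limma voom 0, and Cnn2, a calponin, was at 0.47 (SE 0.12) and Swap70 at 0.88 (SE 0.23). In the other Arp2/3 and nucleation genes (14 tested), the other myosins and regulators (12) and the genes of the serum response factor pathway (7), 1 gene each had an unadjusted p below 0.05 and neither DESeq2 nor limma voom called any. The lowest p values belonged to Hcls1 (0.41, SE 0.15) and Brk1 (0.25, SE 0.16) in the first, Myo1f (0.31, SE 0.12) and Myo18a (-0.41, SE 0.22) in the second, and Ier2 (-1.39, SE 0.49) and Fhl2 (0.41, SE 0.20) in the third. None of 11 tubulin and lamin genes had an unadjusted p below 0.05 or a call by DESeq2 or limma voom, with Tuba1a at 0.28 (SE 0.15) and Tuba4a at 0.33 (SE 0.17).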

How the data were processed

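Read counts per gene, deposited as raw whole numbers for 4 libraries, were used as given. Per the labels' protocols, 1000 cells were resorted and lysed, and Smart-seq2 libraries were made from 5 µl of the lysate with 12 cycles of PCR. Per the submitters' processing notes, the build was mm10 and the tools named are featureCounts 1.5.3, STAR 2.5.2b, DESeq2 1.3.2 and Trimmomatic 0.38. For annotation and strand setting, nothing is given in the sources used here. The authors' own normalized table was left out, since count tests need raw counts.

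Genes kept by filterByExpr (minimum count 10, minimum total 15; 11676 of 55401) were fitted by vector alone in edgeR 4.0.16 (R 4.3.3) with TMM scaling, a robust quasi-likelihood F test and a prior count of 2. CPM use TMM-scaled library sizes. Values per kb divide by the union of a gene's exons in GENCODE M21, where 99.5% of identifiers were found, and understate genes with long unused exons. GC content is that of the longest transcript, and the GC and length offsets are loess fits (span 0.3) made per library. Copies were sought with blastn 2.17.0 (95% identity, 200 bases). The alternatives include DESeq2 1.42.0 and limma 3.58.1 (voom). The fits were tested on counts simulated from these means and dispersions. There edgeR called 42 of 106 genes changed 2-fold and 71 of 87 changed 4-fold. The changed genes were drawn at random from all genes tested, whose median standard error was 0.276 against 0.132 for the members. A typical tested gene that did not pass may thus still differ 2-fold, and the rate for the members was not tested. Alternatives varied scaling, filter, tool, left-out library, replicate block, GC and length offsets and ribosomal RNA genes.

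Members and lists were chosen with earlier results of these data known. All 39 members are named. Full statistics go to called members and those of lowest p, up to 12, and from each other list called genes or the 2 of lowest p are named. Tmsb4x, Rac2 and Arpc1a are named as family partners. Intervals cover counting error only, since PCR reads are not independent molecules. The labels do not say whether replicates came from separate mice. By the sex-linked RNA above, the 2 libraries of each group came from cells of different sex, and so from different donor mice. The p-values measure the spread between these samples, which includes that difference in sex.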

Additional observations from a re-analysis of the deposited data

How the results depend on the processing

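The direction of all 4 called members held in each of the 15 alternatives, 14 of them fixed with the design and 1 (replicate block with GC offset) added after the data were seen. Of the 38 tested members, 26 kept their sign throughout, and the 12 that did not were within 0.18 of 0 on the log2 scale. Members called numbered 2 higher and 2 lower. They were 5 and 5 without a filter on low counts, 5 and 4 by DESeq2, 1 and 2 by limma voom, 2 and 4 with library sizes alone, 0 and 3 with the GC offset (edgeR; at an unadjusted p below 0.05, 5 and 9), 1 and 1 with the length offset, 5 and 5 with the replicate block, and 3 and 6 with the block and the GC offset. With 1 library left out, 1 to 4 were higher and 0 to 5 lower. Over all genes, 84 higher and 129 lower became 461 and 358 without the filter, 152 and 266 by DESeq2, 33 higher by limma voom, 251 lower with library sizes alone, 30 and 72 with the GC offset, 38 and 55 with the length offset, 378 and 416 with the replicate block and 204 and 375 with both. With 1 library left out they ranged from 6 to 87 higher and from 2 to 232 lower, and the low ends come from omitting empty vector replicate 1. The median of the members was -0.074 with library sizes alone, 0.051 without the filter, -0.019 when genes needed a mean of 5 CPM, -0.027 by limma voom, 0.053 with the GC offset, 0.053 with block and GC offset, and -0.068 to 0.029 with 1 library left out. The cause of these shifts was not tested.

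The replicate numbers are shared between the groups, and the deviations of same-numbered libraries from their group means had a correlation of 0.239. The numbers are not stated to mark shared animals, so the paired fit is an alternative. The replicate block called Pfn1, Fermt3, Arpc1b, Rac1, Actr2 and Myh9 besides the 4, among 794 genes in all.

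Signs changed as follows. Without the filter Actb was 0.021, Msn 0.051, Rdx 0.021 and Cdc42 0.003. With library sizes alone Actn1 was -0.061, Arpc5 -0.018, Actr3 -0.045, Vim -0.036 and Rock1 -0.004. With the GC offset Actn1 was -0.100, Msn 0.051, Rdx 0.089 and Cdc42 0.097, and with block and GC offset -0.120, 0.050, 0.087 and 0.096. With the length offset Arpc5 was -0.028, Actr3 -0.017, Msn 0.008, Vim -0.001 and Dock2 0.021. Actn1 was -0.003 when genes needed a mean of 5 CPM and -0.045 by limma voom. With 1 library left out the range was Actb -0.101 to 0.007, Actn1 -0.420 to 0.375, Tmsb10 -0.371 to 0.123, Arpc3 -0.480 to 0.192, Arpc5 -0.052 to 0.163, Actr3 -0.004 to 0.055, Msn -0.083 to 0.065, Rdx -0.121 to 0.042, Vim -0.071 to 0.157, Rock1 -0.069 to 0.216 and Cdc42 -0.118 to 0.004.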
